A study of Mus musculus with 24 samples.

Results

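The proteasome subunit genes of the mouse are the subject here, as measured in nuclear RNA of hippocampal neurons and non-neuronal cells from wild-type mice and mice labelled as knockouts of DNA glycosylases. The members were all gene symbols that begin with Psma, Psmb, Psmc or Psmd followed by a number, without pseudogenes, which gave 39 of the 55254 genes counted. Male wild-type (WT) C57BL/6N mice were compared with Mutyh-/-, Ogg1-/- and Ogg1-/- x Mutyh-/- double knockout (DKO) mice on the same background, all 6 months old and from home-cage conditions. Hippocampal nuclei were sorted by flow cytometry for NeuN, a nuclear protein of most neurons, into NeuN+ and NeuN- fractions, and each of the 4 genotypes contributed 3 libraries per fraction, 24 in all. OGG1 excises oxidised guanine from DNA, and MUTYH removes adenine that was inserted opposite it. The DKO mice came from crossing the single knockouts. Nuclei were pooled across animals of a genotype, and the sources used here do not say whether each replicate library is a separate pool, so p-values measure only the spread between these libraries.

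Libraries held 56563586 to 96192142 counted read pairs. The targeted genes went against the labels in part. Mutyh RNA was higher, not lower, in the libraries labelled Mutyh-/- (log2 fold change 3.15 in NeuN+ and 1.85 in NeuN-) and in those labelled DKO (2.99 and 1.61). Ogg1 RNA in NeuN+ nuclei lay at 3.21 to 3.66 CPM (a gene's count relative to the library total, in counts-per-million units, scaled by trimmed means of M-values, TMM) in the libraries labelled Ogg1-/- and at 2.77 to 3.78 CPM in WT, so the groups overlapped. Counts over a whole gene do not show a deleted exon, and genotypes are named below as labelled. Neuronal markers summed to 4456 to 4809 CPM in WT NeuN+ and to 313 to 383 CPM in WT NeuN- libraries, whereas oligodendrocyte markers summed to 119 to 123 and to 5911 to 6645 CPM. Each fraction had sequencing lanes of its own, so that a lane effect and a cell type difference cannot be told apart.

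The proteasome degrades proteins that carry ubiquitin chains. Its barrel-shaped core is built from alpha and beta subunits, of which 3 beta subunits cleave peptide bonds, and a regulatory cap with a base and a lid recognises, unfolds and feeds in the substrate. In neurons the complex is known for shaping synapses, and in immune cells interferon exchanges the catalytic subunits for immunoproteasome subunits that favour peptides for antigen presentation. The transcription factor NFE2L1 is known to raise subunit genes together when proteasome activity falls, through antioxidant response elements.

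Promoter sequence of 32 of the 39 members was in the RefSeq table of GRCm38.p6, with 34 entries in all, and Psma8, Psmb1, Psmb2, Psmb7, Psmc3, Psmd3 and Psmd7 had no entry. In the 250 bases before the start, on either strand, the antioxidant response element core TGACNNNGC stood in 5 of 32 members (15.6%) and in 10.2% of all 32851 promoters. These members were Psmb5, Psmb6, Psmc6, Psmd12 and Psmd9. The ETS core CCGGAAG stood in 9 of 32 members (28.1%) and in 6.91% of all promoters. CCAAT stood in 13 of 32 members (40.6%) against 33.8%, and the interferon-stimulated response element core GAAANNGAA in 3 of 32 (9.38%) against 7.13%. A match is a string of letters and not a shown binding site. The stretches upstream of 4 members that recur below are shown because they carry one of these matches, and are printed 5′ to 3′ with the match in capitals. Psmb5 and Psmb6 encode catalytic subunits, Psmd2 the large scaffold of the base and Psmd14 the deubiquitinating enzyme of the lid. For Psmb6 (chr11:70525107-70525356, plus strand) and Psmb5 (chr14:54618023-54618245, minus strand) the capitals mark TGACNNNGC, 9 to 1 and 47 to 39 bases before the RefSeq start. The Psmb5 stretch is printed up to its first annotated exon base. For Psmd2 (chr16:20651402-20651651, plus strand) they mark CCGGAAG on the other strand, 26 to 20 bases before the start. For Psmd14 (chr2:61711444-61711693, plus strand) they mark CCAAT on the other strand, 159 to 155 bases before the start.
Psmb6: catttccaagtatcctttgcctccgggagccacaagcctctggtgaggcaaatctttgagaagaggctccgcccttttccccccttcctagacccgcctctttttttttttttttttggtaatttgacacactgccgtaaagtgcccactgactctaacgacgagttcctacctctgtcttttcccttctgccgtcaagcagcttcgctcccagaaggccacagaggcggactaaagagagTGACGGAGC
Psmb5: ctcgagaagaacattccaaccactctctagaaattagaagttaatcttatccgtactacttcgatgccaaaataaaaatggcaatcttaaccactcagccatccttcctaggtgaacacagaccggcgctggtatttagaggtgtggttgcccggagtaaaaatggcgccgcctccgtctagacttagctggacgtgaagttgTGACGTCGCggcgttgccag
Psmd2: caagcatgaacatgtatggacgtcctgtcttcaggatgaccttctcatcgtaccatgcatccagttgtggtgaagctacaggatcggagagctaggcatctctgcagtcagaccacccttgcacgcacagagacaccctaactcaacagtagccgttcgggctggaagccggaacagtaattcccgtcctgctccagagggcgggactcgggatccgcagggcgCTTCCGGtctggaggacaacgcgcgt
Psmd14: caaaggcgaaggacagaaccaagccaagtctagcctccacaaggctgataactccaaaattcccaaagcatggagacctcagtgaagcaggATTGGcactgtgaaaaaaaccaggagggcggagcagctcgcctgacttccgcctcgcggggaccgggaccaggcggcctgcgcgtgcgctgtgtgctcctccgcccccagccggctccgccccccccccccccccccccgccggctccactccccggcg

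First, the levels of the members in WT nuclei were set side by side. Since genes differ in length, levels between genes are given as TMM-scaled CPM per kilobase of exon, as the mean of 3 libraries. Among the 34 members other than Psma8, Psmb8, Psmb9, Psmb10 and Psmb11, levels per exon kilobase ran from 1.00 to 34.1 in NeuN+ and from 1.07 to 24.01 in NeuN-, with medians of 6.81 and 6.32. Psmb2, a structural beta subunit, and Psmd14 stood highest in both fractions. In NeuN+ they reached 34.1 ± 2.102 and 30.9 ± 2.55 (SD, n = 3), which does not separate them, and the next, Psma5 at 12.5 ± 0.73 and Psmc1 at 12.2 ± 0.20, lay well below and within their spread of each other.

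The alpha ring, which gates the core, was measured with Psma1 at 4.58 in NeuN+ and 3.00 in NeuN-, Psma2 at 6.52 and 4.82, Psma3 at 10.8 and 8.43, Psma4 at 8.91 and 7.38, Psma5 at 12.5 and 10.7, Psma6 at 11.2 and 11.6, and Psma7 at 4.56 and 3.78 CPM per exon kilobase. Psma8, the alpha subunit known from testis, lay far lower at 0.58 and 0.67. Of the structural beta subunits, Psmb1 was at 4.92 in NeuN+ and 5.01 in NeuN-, Psmb3 at 3.78 and 3.54, Psmb4 at 3.04 and 2.92, and Psmb2 at 34.1 and 24.01. The catalytic subunits Psmb5 (chymotrypsin-like), Psmb6 (caspase-like) and Psmb7 (trypsin-like) stood at 5.67, 3.25 and 10.8 in NeuN+ and at 4.17, 4.16 and 11.2 in NeuN-. Subunits that sit together in one complex thus differed several-fold in nuclear RNA per exon length.

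The base ATPases, the ring that unfolds substrates, ranged from Psmc2 (3.17 in NeuN+ and 3.40 in NeuN- CPM per exon kilobase) to Psmc1 (12.2 and 10.7), with Psmc3 at 10.95 and 10.8, Psmc4 at 7.22 and 6.28, Psmc5 at 8.56 and 6.83, and Psmc6 at 8.81 and 8.11. The other base subunits are the scaffolds Psmd1 (9.78 and 8.92) and Psmd2 (6.397 and 5.78) and the ubiquitin receptor Psmd4 (11.03 and 9.98). In the lid, Psmd3 was at 4.18 in NeuN+ and 4.20 in NeuN-, Psmd6 at 6.65 and 5.66, Psmd7 at 9.58 and 9.33, Psmd8 at 3.44 and 3.73, Psmd11 at 6.53 and 6.96, Psmd12 at 6.97 and 6.37, Psmd13 at 7.88 and 6.65, and Psmd14 at 30.9 and 20.3. The assembly chaperones that the rule takes in stood lowest among the broadly used members, with Psmd5 at 2.09 and 1.89, Psmd9 at 2.42 and 1.99, and Psmd10 at 1.00 and 1.07. The order depended on the length used. Per kilobase of the whole gene, Psmd4 (3.12) and Psma4 (2.92) led in NeuN+, and Psmd14 stood at rank 21 of 39. Across the 39 genes, as a description from the same WT NeuN+ libraries, CPM had a Spearman rho of 0.62 with the length of the whole gene and of 0.30 with exon length.

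The first question was whether loss of the glycosylases alters subunit RNA in neurons. The summed level of all 39 members in NeuN+ nuclei was 807, 818 and 799 CPM in WT. It was 761, 763 and 741 CPM in the libraries labelled Mutyh-/-, 752, 748 and 744 CPM in those labelled Ogg1-/-, and 771, 751 and 734 CPM in those labelled DKO. Each knockout library lay below each WT library, and group means were 6.57%, 7.46% and 6.97% below the WT mean of 808 ± 9.61 CPM (SD, n = 3). A sum over bulk nuclei cannot tell fewer nuclei of a type from less RNA per nucleus. Neuronal markers in NeuN+ libraries summed to 4456 to 4809 CPM in WT. They summed to 4846 to 5190, 4587 to 5062 and 4767 to 5029 CPM with the Mutyh-/-, Ogg1-/- and DKO labels. Of these only Mutyh-/- did not overlap WT, and the part of cell make-up in the NeuN+ values was not tested. In NeuN- nuclei the proteasome sums were 709, 719 and 710 CPM in WT, 708, 728 and 682 CPM in Mutyh-/-, 705, 684 and 688 CPM in Ogg1-/-, and 701, 685 and 649 CPM in DKO libraries. There the Mutyh-/- libraries overlapped WT, whereas the Ogg1-/- and DKO libraries lay below it, with means 0.93%, 2.84% and 4.78% lower. Ribosomal protein genes, a set of 78, were lower as well. In NeuN+ they summed to 1059 to 1076 CPM in WT, and to 937 to 1054, 829 to 963 and 847 to 995 CPM with the Mutyh-/-, Ogg1-/- and DKO labels. In NeuN- they summed to 1142 to 1165 CPM in WT, and to 1007 to 1127, 978 to 1054 and 946 to 1110 CPM, below WT in all 3 genotypes, the Mutyh-/- libraries included, where the proteasome sum overlapped WT. The 10 genes of the signalosome, a complex built like the lid, were lower in NeuN+ too. They summed there to 155.3 to 159.3 CPM in WT. With the same labels in order they summed to 143.4 to 149.8, 146.7 to 149.1 and 141.3 to 152.7 CPM, each library below WT. The 8 genes of the chaperonin, which folds actin and tubulin, summed to 185 to 198.3 CPM in WT NeuN+. With those labels they reached 167.4 to 201.8, 149.2 to 175.7 and 163.8 to 178.4 CPM, and Mutyh-/- overlapped WT. The part of these sets in the result was not tested.

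**Figure D1:**
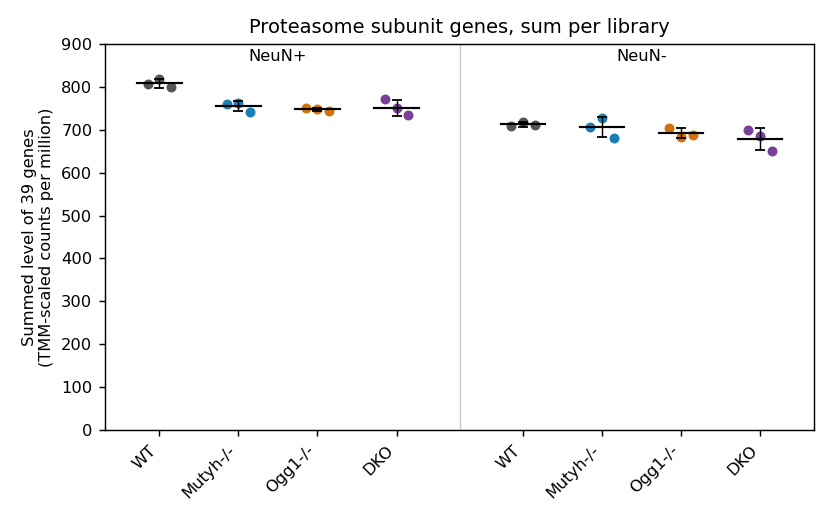
Summed level of the 39 proteasome subunit genes (TMM-scaled CPM, y axis) in each of the 24 libraries by genotype, NeuN+ and NeuN- shown separately, with points for libraries, long lines for group means and bars for the SD (n = 3). The 3 WT NeuN+ libraries sit between 799 and 818 CPM, above all 9 knockout NeuN+ libraries at 734 to 771 CPM.

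Single genes were then tested with edgeR's quasi-likelihood test, one fit of 12 libraries per fraction, with Benjamini-Hochberg adjustment over all genes tested. In NeuN+ nuclei 36 of the 39 members passed the filter on low counts, all but Psmb8, Psmb9 and Psmb11, and in NeuN- nuclei all 39 did. No member passed an adjusted p of 0.05 in any of the 6 comparisons with WT, while the share of all genes called was 0.641% (Mutyh-/-), 1.1% (Ogg1-/-) and 0.494% (DKO) in NeuN+ and 0.32%, 0.342% and 0.179% in NeuN-. DESeq2 called 1, 5 and 3 members lower in NeuN+ in the same order. Its shares are over the genes to which it gave an adjusted p, 17862 to 20782 in NeuN+ and 20739 to 22592 in NeuN-. Of these it called 2.19%, 3.37% and 2.69% lower in NeuN+. In NeuN- it called 0, 1 and 1 members lower, against 1.24%, 1.21% and 1.38% of such genes. It called no member higher in either fraction, where it called 3.71%, 0.641% and 0.873% of such genes higher in NeuN+ and 1.65%, 1.62% and 0.686% in NeuN-.

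In libraries labelled Mutyh-/- the NeuN+ members had a median log2 fold change of -0.11, against -0.01 over all genes tested, and 32 of 36 were below 0. At an unadjusted p under 0.05, 10 of 36 members were lower and 0 higher, where 9.21% of all genes were lower and 9.48% higher. In 9 of 36 every knockout library lay below every WT library, where 11.2% of all genes did so. The smallest p belonged to Psma4, an alpha ring subunit at chr9:54950790-54958030. It was measured at 21.4, 22.0 and 20.0 CPM in WT and at 17.7, 17.1 and 17.3 CPM in Mutyh-/- NeuN+ libraries, without overlap (log2 fold change -0.28, SE 0.08, edgeR adjusted p = 0.111). Psmd1, a scaffold of the base, had a log2 fold change of -0.14 (edgeR adjusted p = 0.128) and Psmd6, a lid subunit, of -0.21 (0.134). Of the 4 members above 0, those with the smallest p were Psmc2 (0.05), Psmd8 (0.07) and Psmb2 (0.03), with edgeR adjusted p = 0.66, 0.723 and 0.813.

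In libraries labelled Ogg1-/- the NeuN+ median was -0.15, against 0.01 over all genes, and 35 of 36 members were below 0. Here 16 of 36 members were lower at an unadjusted p under 0.05 and 0 higher, against 7.33% of all genes lower and 5.01% higher. In 19 of 36 the libraries did not overlap, with the knockout below, against 8.98% of all genes. Psmb6, the caspase-like catalytic subunit (ENSMUSG00000018286, chr11:70525367-70527858) whose promoter is printed above, was measured at 5.43, 6.30 and 6.54 CPM in WT. It was at 4.84, 4.46 and 3.93 CPM in Ogg1-/- NeuN+ libraries, below every WT library (log2 fold change -0.49, SE 0.11, edgeR adjusted p = 0.0573). Psmc1, a base ATPase (chr12:100110154-100123405), was at 23.2, 23.96 and 23.5 CPM in WT and at 21.0, 19.8 and 20.1 CPM in Ogg1-/- libraries, again apart (-0.23, SE 0.06, edgeR adjusted p = 0.0728). Psmd7, the lid partner of the deubiquitinating enzyme, had -0.27 (SE 0.07, edgeR adjusted p = 0.0856). Only Psmb2 was above 0, at 0.04, and without WT replicate 2 it was at -0.01. The 5 members that DESeq2 called lower were Psmb5, Psmb6, Psmc1, Psmd2 and Psmd7. With only WT and Ogg1-/- libraries in the edgeR fit, 6 members were called, the same 5 and Psma4.

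In libraries labelled DKO the NeuN+ median was -0.13, against -0.0005 over all genes, and 35 of 36 members were below 0. At an unadjusted p under 0.05, 13 of 36 were lower and 0 higher, against 7.51% of all genes lower and 5.98% higher, and 15 of 36 did not overlap with the knockout below, against 8.35%. Psmd1 was measured at 73.7, 71.4 and 68.1 CPM in WT and at 65.4, 63.1 and 62.9 CPM in DKO NeuN+ libraries (log2 fold change -0.17, SE 0.04, edgeR adjusted p = 0.112). Psmc1 had -0.22 (edgeR adjusted p = 0.116). Psmd2, the scaffold at which shuttle proteins dock (chr16:20651652-20663414), was at 23.7, 28.5 and 25.3 CPM in WT and at 21.6, 21.0 and 18.3 CPM in DKO libraries, which did not overlap (-0.36, SE 0.10, edgeR adjusted p = 0.128). Psmb2 was at 0.005 (adjusted p = 0.98), the only value above 0. Without DKO replicate 1, edgeR called 1 member, Psma4, lower. The 3 comparisons share the WT libraries and are not independent of each other.

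**Figure D2:**
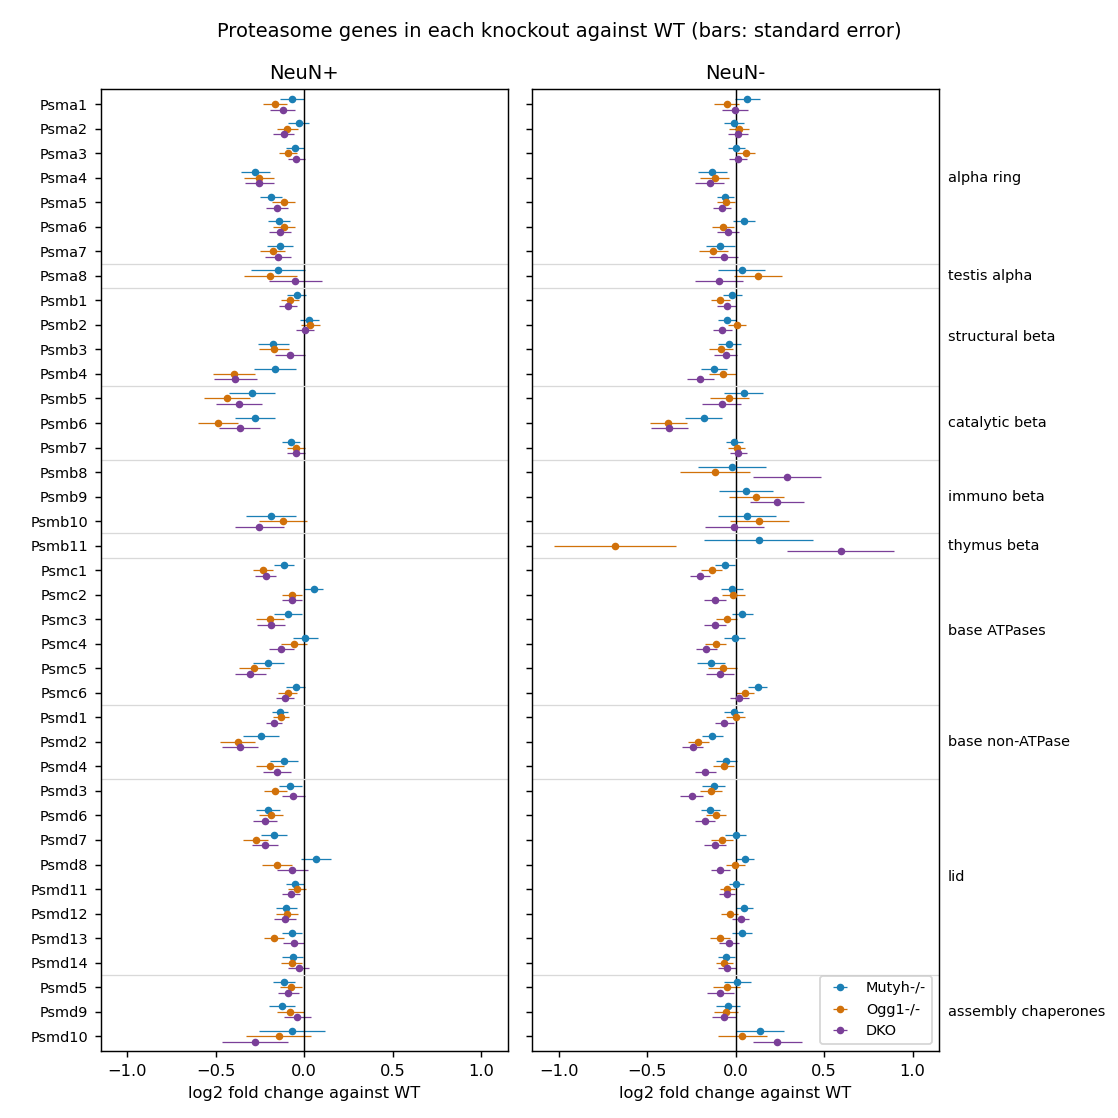
Log2 fold change against WT (x axis) of each tested member by edgeR with its standard error, for each genotype in NeuN+ and NeuN- nuclei, grouped by role in the complex. In NeuN+ 32, 35 and 35 of 36 members lie below 0, and in NeuN- 23, 30 and 30 of 39.

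Grouped by role, the catalytic subunits had the lowest NeuN+ medians, at -0.28 in Mutyh-/-, -0.44 in Ogg1-/- and -0.36 in DKO libraries, over 3 genes. The 3 genes were not alike. Psmb5, the chymotrypsin-like subunit, was at 4.92, 5.27 and 5.12 CPM in WT NeuN+ libraries, at 5.06, 4.09 and 3.32 in Mutyh-/-, at 4.00, 3.81 and 3.63 in Ogg1-/- and at 3.77, 4.504 and 3.72 in DKO libraries. Thus 1 Mutyh-/- library reached into the WT range, and no Ogg1-/- or DKO library did, with log2 fold changes of -0.30, -0.44 and -0.37 (edgeR adjusted p = 0.244, 0.136 and 0.234). Psmb6 was at 5.19, 5.54 and 4.35 CPM in Mutyh-/- and at 4.70, 5.23 and 4.43 CPM in DKO libraries (-0.28 and -0.36, edgeR adjusted p = 0.218 and 0.178). Psmb7, the trypsin-like subunit, was at 37.8, 36.2 and 36.4 CPM in WT and stayed between 33.4 and 37.7 CPM in the 9 knockout libraries, so its groups overlapped WT.

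The other roles lay closer to 0. The median NeuN+ log2 fold change in Mutyh-/-, Ogg1-/- and DKO libraries was -0.14, -0.12 and -0.13 for the 7 alpha ring genes, all below 0 in each. It was -0.07, -0.14 and -0.16 for the 6 base ATPases, and -0.14, -0.19 and -0.17 for Psmd1, Psmd2 and Psmd4. The 8 lid genes had -0.07, -0.16 and -0.07, the 4 structural beta genes -0.10, -0.12 and -0.09, and the 3 assembly chaperones -0.11, -0.08 and -0.09. Psmd14, which cuts ubiquitin chains from substrates, was at 95.1, 84.5 and 81.4 CPM in WT, and its 9 knockout values, 79.9 to 90.7 CPM, overlapped WT in each genotype (log2 fold changes -0.07, -0.07 and -0.03). Psmb4, a structural beta subunit singled out after its values were seen, lay lower than its group, at -0.17, -0.39 and -0.39 (edgeR adjusted p = 0.486, 0.144 and 0.17). Of the members in restricted use, Psmb10 was at -0.19, -0.12 and -0.25 and Psma8 at -0.15, -0.19 and -0.05, each with an edgeR adjusted p of 0.453 or more.

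**Figure D3:**
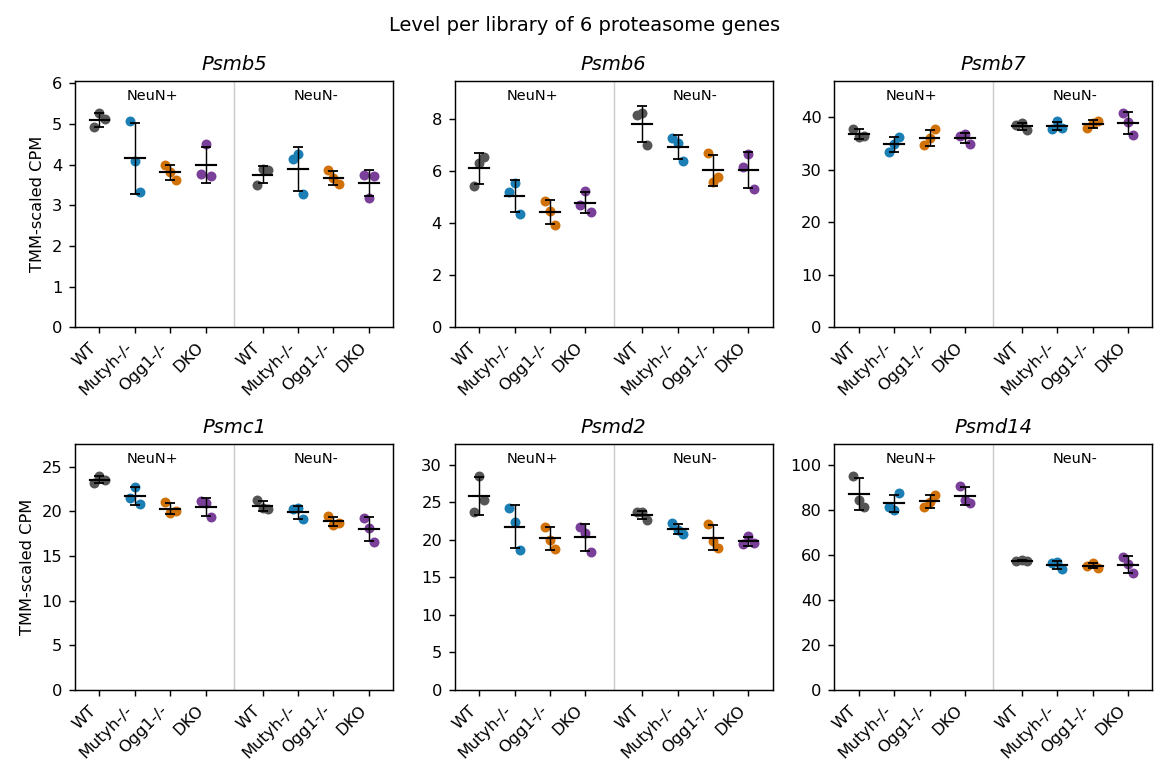
TMM-scaled CPM (y axis) of Psmb5, Psmb6, Psmb7, Psmc1, Psmd2 and Psmd14 in each library, by genotype and fraction, with points for libraries, long lines for group means and bars for the SD (n = 3). In NeuN+, Psmc1 lies at 23.2 to 23.96 CPM in WT and at 19.3 to 22.7 CPM in the knockout libraries, whereas Psmb7 and Psmd14 overlap WT in each genotype.

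The members with the lowest values were also short genes. This was noticed after the values were seen and is given as a description. Psmb6 and Psmb5 span 2.49 and 3.90 kb, whereas Psmb2, Psmb7 and Psmd14 span 32.1, 56.1 and 88.7 kb. In NeuN+ the 13 tested members under 10 kb had medians of -0.17, -0.19 and -0.25 in Mutyh-/-, Ogg1-/- and DKO libraries, and the 23 longer ones -0.08, -0.10 and -0.09. Over the 36 members, which share the same libraries, Spearman's rho between span and log2 fold change was 0.42, 0.67 and 0.69. Over 29185 genes with a span it was -0.04, -0.003 and -0.06. In NeuN- the rho over 39 members was 0.06, 0.32 and 0.19.

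In NeuN- nuclei the members lay nearer to WT. The median log2 fold change was -0.01 in Mutyh-/-, -0.05 in Ogg1-/- and -0.07 in DKO libraries, against -0.01, 0.001 and 0.01 over all genes, and 23, 30 and 30 of 39 members were below 0. At an unadjusted p under 0.05, 2 members were lower and 1 higher in Mutyh-/- libraries, against 6.9% of all genes lower and 6.78% higher. For Ogg1-/- 3 were lower (6.08% of all genes) and for DKO 8 (6.31%), and 0 were higher in either, against 5.75% and 6.06%. The libraries did not overlap, with the knockout below, for 5, 7 and 12 members, where 9.49%, 9.84% and 8.4% of all genes did so. Among members named below, the knockout lay above WT without overlap for Psmc6 in Mutyh-/- and Ogg1-/- libraries. The same held for Psmb9 and Psmb11 in DKO libraries, and the share of all genes in that direction was not counted. Oligodendrocyte markers in these fractions summed to 5911 to 6645 CPM in WT and to 5505 to 6765, 5045 to 5667 and 4501 to 5578 CPM in the Mutyh-/-, Ogg1-/- and DKO libraries. Astrocyte markers summed to 2789 to 3314, 2853 to 3745, 3247 to 4112 and 3468 to 3628 CPM, and choroid plexus markers to 29.7 to 52.7, 15.8 to 19.1, 7.73 to 82.7 and 5.90 to 181 CPM. The part of this cell make-up in the NeuN- values was not tested.

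Psmb6 was measured at 8.14, 8.21 and 6.99 CPM in WT NeuN- libraries, at 7.25, 7.05 and 6.38 in Mutyh-/-, at 6.69, 5.58 and 5.76 in Ogg1-/- and at 6.15, 6.63 and 5.28 CPM in DKO libraries. All Ogg1-/- and DKO libraries lay below WT, with log2 fold changes of -0.38 in both (SE 0.10, edgeR adjusted p = 0.183 and 0.204). Psmd2 was at 23.7, 23.7 and 22.7 CPM in WT, at 22.2, 21.3 and 20.8 CPM in Mutyh-/-, at 22.1, 19.9 and 18.9 CPM in Ogg1-/- and at 19.4, 20.5 and 19.5 CPM in DKO libraries. It did not overlap WT in any genotype, and its log2 fold changes were -0.13, -0.21 and -0.24 (edgeR adjusted p = 0.348, 0.185 and 0.154). DESeq2 called Psmb6 lower in Ogg1-/- and Psmd2 lower in DKO NeuN- libraries.

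Psmb5 had NeuN- log2 fold changes of 0.05, -0.03 and -0.08 in the Mutyh-/-, Ogg1-/- and DKO libraries, and Psmb7 of -0.01, 0.01 and 0.02, and both overlapped WT in each. Psmd14 was at 57.1 to 57.5 CPM in WT, and the same genotypes reached 53.7 to 56.7, 54.3 to 56.3 and 51.9 to 59.2 CPM in NeuN- libraries. Its values of -0.05, -0.06 and -0.05 did not pass the test (edgeR adjusted p = 0.692, 0.681 and 0.726), although the single knockouts lay below WT. Psma8 was at 0.03, 0.12 and -0.10, and Psmb11 at 0.13, -0.68 and 0.59, without passing it either.

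Among the remaining members chosen by smallest p in NeuN-, Psmd6 (-0.14) and Psmd3 (-0.12) were lower in Mutyh-/- libraries without passing the test. Psmc1 was at -0.14 in Ogg1-/- and Psmd3 at -0.25 in DKO libraries (edgeR adjusted p = 0.377 and 0.18). Above 0 were Psmc6 (0.12), Psmd10 (0.14) and Psmd12 (0.05) in Mutyh-/-, and Psma3 (0.06), Psmc6 (0.05) and Psma8 (0.12) in Ogg1-/- libraries. In DKO libraries these were Psmb11 (0.59), Psmd10 (0.24) and Psmb9 (0.23), with edgeR adjusted p = 0.448, 0.507 and 0.557. The other subunits of restricted use had NeuN- values of -0.02, -0.12 and 0.29 (Psmb8), 0.06, 0.12 and 0.23 (Psmb9) and 0.06, 0.13 and -0.01 (Psmb10) in the Mutyh-/-, Ogg1-/- and DKO libraries, and none passed the test. Psmb11, the beta subunit known from the thymus, was at only 0.18 to 0.23 CPM in DKO and 0.12 to 0.15 CPM in WT NeuN- libraries.

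Partner genes of the proteasome were taken from a list of 46 activators, assembly and bound factors, shuttles, ubiquitin genes, regulators of subunit transcription and antigen presentation genes, of which 44 were tested. In NeuN+ of Ogg1-/- libraries, 3 of 44 were called lower and 0 higher by edgeR, where 0.873% of all genes were called lower, with a median log2 fold change of -0.10. Psme1, a subunit of the activator that opens the core without ubiquitin, was at 6.65, 7.15 and 6.89 CPM in WT and at 5.27, 4.88 and 4.76 CPM in Ogg1-/- libraries (-0.49, SE 0.11, edgeR adjusted p = 0.0456). Rps27a, which encodes ubiquitin fused to a ribosomal protein, fell from 10.8, 10.7 and 11.4 CPM to 8.53, 7.95 and 7.10 CPM (-0.50, SE 0.10, edgeR adjusted p = 0.0322). It is counted among the 78 ribosomal protein genes as well. The polyubiquitin gene Ubb fell from 152, 188 and 172 CPM to 131, 113 and 97.7 CPM (-0.60, SE 0.14, edgeR adjusted p = 0.0495). In all 3 genes every Ogg1-/- library lay below every WT library.

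In the other 5 comparisons with WT edgeR called 0 of the 44 partner genes. At an unadjusted p under 0.05, 9 were lower and 1 higher in Mutyh-/- NeuN+ and 14 lower and 0 higher in DKO NeuN+ libraries, where 9.21% and 7.51% of all genes were lower and 9.48% and 5.98% higher. DESeq2 called 3 and 5 lower, against 2.19% and 2.69% of the genes to which it gave an adjusted p. In NeuN- 3, 8 and 9 were lower and 1, 3 and 3 higher in Mutyh-/-, Ogg1-/- and DKO libraries at that p, where 6.9%, 6.08% and 6.31% of all genes were lower and 6.78%, 5.75% and 6.06% higher. The Mutyh-/- counts are thus no more than the share over all genes. DESeq2 called 1, 1 and 2 higher and 0, 0 and 1 lower in NeuN-, against 1.65%, 1.62% and 0.686% of the genes with its adjusted p higher and 1.24%, 1.21% and 1.38% lower. The signalosome, a complex built like the lid, had 1 of 10 genes called in Ogg1-/- NeuN+ libraries (Cops6, -0.44, edgeR adjusted p = 0.0465), with a median of -0.08. The chaperonin that folds actin and tubulin had 1 of 8 (Cct2, -0.35, edgeR adjusted p = 0.0397), with a median of -0.22. Of the 78 ribosomal protein genes, 10 were called lower there and 0 higher, with a median of -0.35. The share of all genes called lower in that comparison, 0.873%, applies to all 3 of these lists. Beside these stands the median of -0.15 over the 36 proteasome genes.

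Whether the genotypes differed from each other was tested in the same fits. In NeuN+ edgeR and DESeq2 called 0 of 36 members between DKO and Ogg1-/- (0.252% of all genes by edgeR), DKO and Mutyh-/- (0.163%), and Ogg1-/- and Mutyh-/- libraries (0.654%). At an unadjusted p under 0.05 these had 0, 1 and 2 members, against 4.26%, 6.86% and 12.7% of all genes. The member with the smallest p was the lid gene Psmd8, at 11.2, 12.1 and 9.67 CPM in Mutyh-/- and 10.3, 9.27 and 9.17 CPM in Ogg1-/- libraries (log2 fold change -0.22, edgeR adjusted p = 0.301). It overlapped between them, and without Mutyh-/- replicate 3 edgeR called it. In NeuN- the same 3 comparisons gave 0 of 39 by both tools (0.157%, 0.148% and 0.788% of all genes by edgeR) and 1, 4 and 1 members at an unadjusted p under 0.05, against 4.34%, 11% and 11.5%. Psmb11 was the single member in the DKO against Ogg1-/- and the Ogg1-/- against Mutyh-/- comparison (1.28 and -0.81, edgeR adjusted p = 0.542 and 0.413), at counts of 4 to 18 per library. The 4 members lower in DKO than in Mutyh-/- NeuN- libraries were Psmc1, Psmc3, Psmc4 and Psmd8, from -0.16 to -0.14.

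The DKO value was also compared with the sum of both single-knockout values on the log2 scale. In NeuN+ 0 of 36 members were called by edgeR or DESeq2 (0.159% of all genes by edgeR), and 5 had an unadjusted p under 0.05, against 7.95% of all genes. These 5, Psma4, Psmb3, Psmb6, Psmd7 and Psmd13, were all above 0, which means that the DKO value was less negative than the sum. Psmb6 had the largest of them, 0.40 (SE 0.16, edgeR adjusted p = 0.602), and over the 36 members the median was 0.12. In NeuN- 0 of 39 were called by either tool (0.122%), 1 had an unadjusted p under 0.05 (8% of all genes), and the median was -5.6e-05. WT libraries enter all 3 values of this contrast.

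The difference between the fractions in the knockout effect was tested in a fit of all 24 libraries, which did not pair the fractions by replicate number. edgeR and DESeq2 called 0 of 39 members for Mutyh-/- (0.0209% of all genes by edgeR), Ogg1-/- (0.0537%) and DKO (0.0567%). At an unadjusted p under 0.05 there were 3, 4 and 2 members, against 8.58%, 7.09% and 9.4% of all genes. The median difference, NeuN+ minus NeuN-, was -0.11, -0.09 and -0.05, with 34, 33 and 27 of 39 members below 0. Psmc6, a base ATPase, had the smallest p for Mutyh-/- (-0.19, edgeR adjusted p = 0.449), and Psmb5 was at -0.39 for Ogg1-/- (SE 0.18, edgeR adjusted p = 0.664). A difference between the fractions in the knockout effect was thus not shown for any single member.

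Finally, the members were compared between WT NeuN+ and WT NeuN- nuclei. At an adjusted p under 0.05, 18 of 39 members were higher in NeuN+ and 5 lower, and 36.1% of all genes were higher and 36.3% lower. With a log2 difference above 1 required as well, 0 members were higher, where 21.3% of all genes were, and 3 were lower, where 21.6% were. These 3, Psmb8, Psmb9 and Psmb11, passed the filter on low counts only through NeuN- libraries, so the count of 3 is no test of them. The median log2 difference of the members was 0.13, against -0.01 over all genes. This split depended on scaling: with total counts in place of TMM factors 5 members were higher and 16 lower and the median of all genes shifted to -0.25, and with upper quartile factors it was 23 and 4 and 0.10. Relative to all genes, the members lay 0.14 higher under each of these.

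In the alpha ring 6 of 7 genes were called higher in NeuN+, where 36.1% of all genes were, with a median of 0.27, and Psma6 was at -0.05. Psma1 was at 14.0, 13.1 and 13.5 CPM in WT NeuN+ and at 8.70, 9.04 and 8.85 CPM in WT NeuN- libraries, well apart (log2 difference 0.61, SE 0.07, edgeR adjusted p = 3.17e-08). Psma2 and Psma3 followed at 0.44 and 0.36. Of the base ATPases 4 of 6 were higher, with Psmc5 at 0.33, and of the lid 4 of 8, against the same 36.1% of all genes. These counts rest on few genes and on the scaling, since under total counts only 5 of all 39 members were higher. Psmd14 was at 95.1, 84.5 and 81.4 CPM in NeuN+ and at 57.5, 57.5 and 57.1 CPM in NeuN- libraries (0.60, SE 0.06, edgeR adjusted p = 3.01e-09). Psmb2 was at 42.3, 38.2 and 42.8 against 29.0, 29.2 and 28.5 CPM (0.51, SE 0.05, edgeR adjusted p = 7.97e-09). Under total counts these values shift down with all genes.

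**Figure D4:**
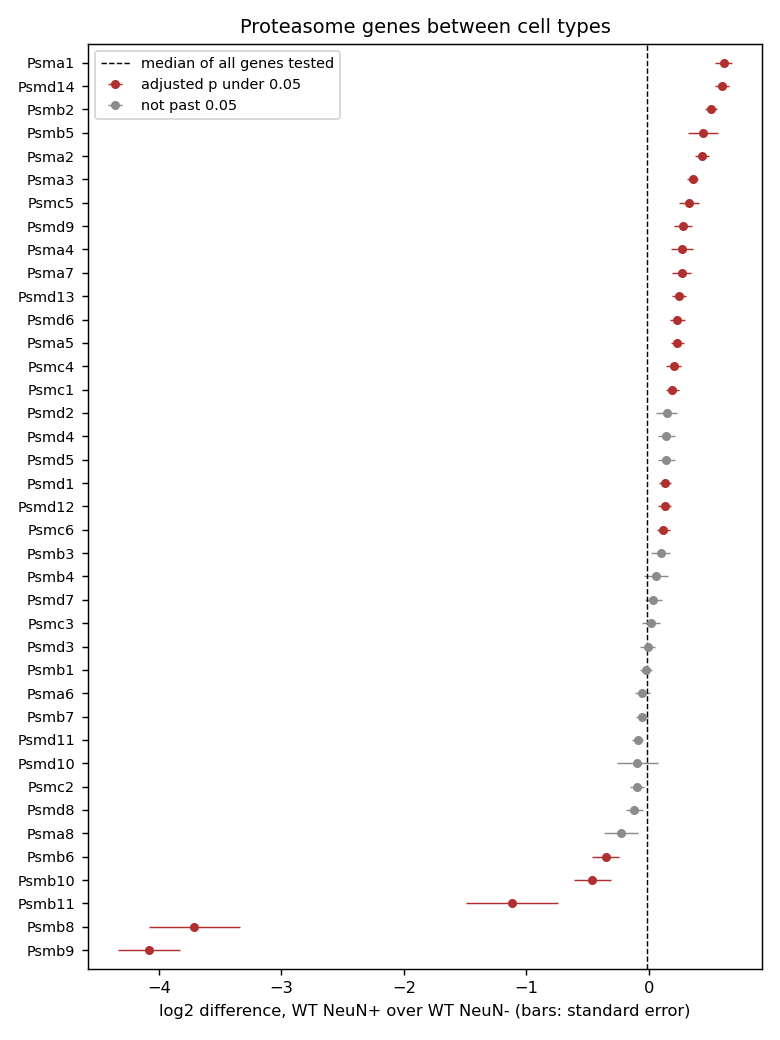
Log2 difference of each member between WT NeuN+ and WT NeuN- nuclei (x axis, positive where NeuN+ is higher) with its standard error, sorted by the difference. Red points passed an adjusted p of 0.05, and the dashed line is the median of all genes tested. Psmb9 and Psmb8 lie at -4.08 and -3.71, and the other members between -1.12 and 0.61.

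The catalytic subunits differed in direction. Psmb5 was at 4.92, 5.27 and 5.12 CPM in NeuN+ against 3.51, 3.88 and 3.86 CPM in NeuN- libraries, and was called higher (0.44, SE 0.12, edgeR adjusted p = 0.00289). Psmb6 was at 5.43, 6.30 and 6.54 against 8.14, 8.21 and 6.99 CPM, and was called lower (-0.35, SE 0.11, edgeR adjusted p = 0.00739). Psmb7 did not pass (-0.06, edgeR adjusted p = 0.284) and Psma8 did not either (-0.23, edgeR adjusted p = 0.145). These values rest on TMM factors. Under total counts they shift down with all genes, and only 5 of 39 members were called higher there.

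The immunoproteasome subunits Psmb8, Psmb9 and Psmb10 replace Psmb5, Psmb6 and Psmb7 respectively, and all 3 were lower in NeuN+. Psmb8 and Psmb9, like Psmb11 below, did not pass the filter on low counts in NeuN+ alone. They entered this fit through the NeuN- libraries, where they were higher, so their p-values are a description and not a test. Psmb9 had counts of 4, 3 and 4 in the WT NeuN+ libraries, at 0.06, 0.05 and 0.07 CPM, against 1.103, 0.90 and 1.11 CPM in NeuN- (-4.08, SE 0.25, edgeR adjusted p = 1.16e-12). Its level was 17.5-fold higher in NeuN-, with an exact 95% interval of 9.63 to 35.5 that covers counting error only. Psmb8 had counts of 8, 8 and 1 in WT NeuN+ and was at 1.47, 0.98 and 1.22 CPM in NeuN- (-3.71, SE 0.37, edgeR adjusted p = 6.07e-09), 13.5-fold higher there (8.33 to 23.5). The gene overlaps Gm20496 over 14.7% of its exon bases, and Psmb9 overlaps Tap1 over 5.79%, so that these genes could share reads. Psmb10 was at 1.62, 1.78 and 1.72 against 2.43, 2.13 and 2.49 CPM (-0.46, SE 0.15, edgeR adjusted p = 0.0102). Psmb11 had 4, 3 and 4 counts in NeuN+ and 34 over the NeuN- libraries (-1.12, SE 0.38, edgeR adjusted p = 0.0244). DESeq2 did not call it (adjusted p = 0.0643), nor did edgeR without replicate 2 of either fraction.

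Per exon length, Psmb8 stood at 0.0858% to 0.70% of Psmb5 in WT NeuN+ libraries and at 6.72% to 11.2% in WT NeuN- libraries. Psmb9 stood at 0.39% to 0.61% of Psmb6 in NeuN+ and at 5.60% to 8.11% in NeuN-. Psmb10 differed least, at 8.61% to 9.89% of Psmb7 in NeuN+ and 10.99% to 13.3% in NeuN-. These shares depended on the length used. Per kilobase of the whole gene, mean Psmb10 and Psmb7 stood at 0.63 and 0.66 CPM in WT NeuN+. In WT NeuN- they stood at 0.87 and 0.68 CPM, so that Psmb10 was the higher one. On that scale Psmb8 and Psmb5 stood at 0.33 and 0.96 CPM in WT NeuN-, and Psmb9 and Psmb6 at 0.18 and 3.12 CPM. Microglial markers, given here because microglia are known to express these subunits, summed to 96.8 to 100.1 CPM in WT NeuN+ and 686 to 801 CPM in WT NeuN- libraries, and their part in the result was not tested. Per exon length again, Psmb9 stood at 8.66% to 10.7% of Psmb6 in Ogg1-/- and 9.08% to 12.2% in DKO NeuN- libraries, above the WT range. In Mutyh-/- NeuN- libraries it stood at 6.61% to 10.5%, which overlapped WT. Psmb6 was lower in Ogg1-/- and DKO. In DKO Psmb9 was higher as well, at 1.175 to 1.262 CPM against 0.898 to 1.107 CPM in WT. Neither gene passed the edgeR test, and DESeq2 called Psmb6 lower in Ogg1-/-. Psmb8 relative to Psmb5 and Psmb10 relative to Psmb7 overlapped WT in each NeuN- genotype.

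**Figure D5:**
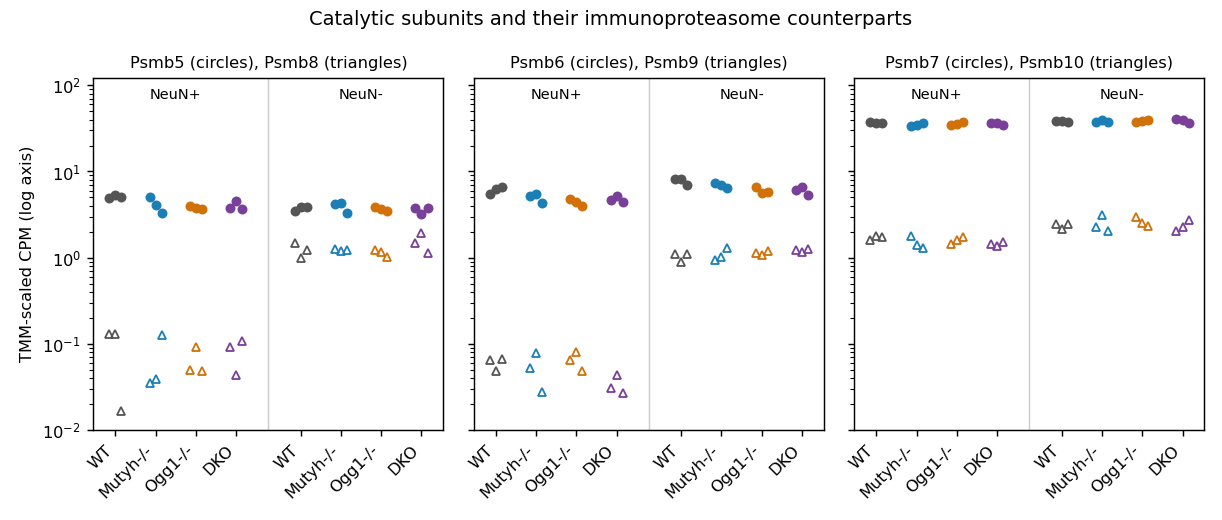
TMM-scaled CPM (y axis, log scale) of each catalytic subunit (circles) and of the immunoproteasome subunit that replaces it (triangles), for each library by genotype and fraction. In WT, Psmb8 lies at 0.98 to 1.47 CPM in NeuN- and at or below 0.13 CPM in NeuN+ libraries, whereas Psmb10 lies above 1 CPM in both.

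Partner genes were set in the same comparison. Of the 9 antigen presentation genes, 8 were lower in NeuN+ with a median log2 difference of -2.41, among them H2-K1 (-4.63, SE 0.19), B2m (-2.69) and the peptide transporter Tap1 (-2.29), and Irf1 alone was not called (0.10). Of the activators, Psme2 was lower (-0.82) and Psme3 and Psme4 higher (0.69 and 0.46), whereas Psme1 was at -0.01. The transcription factor Nfe2l2 was lower in NeuN+ (-3.91, SE 0.12) and its relative Nfe2l1, named above, higher (0.61, SE 0.05). Usp14, a deubiquitinating enzyme that docks on the base, was higher (0.82), as were Ecpas (0.69) and Txnl1 (0.78). Of the 5 assembly factors tested, Psmg1 was higher (0.32) and Psmg2 and Psmg4 were lower (-0.18 each). Across all 44 partner genes 13 were higher and 18 lower with TMM factors, near the shares of all genes called, 36.1% and 36.3%.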

How the data were processed

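RNA from sorted hippocampal nuclei went into stranded total RNA libraries, which were sequenced in read pairs. Per the study's methods and the submitters' processing notes, reads were aligned to GRCm38/mm10 with HISAT2 2.1.0, handled with SAMtools 1.10 and counted per gene with featureCounts. The deposited values are raw counts per gene, not normalized by the authors. How strand, introns, overlapping genes and multiply mapped reads were treated is not given in the sources used here. Counts were fitted with edgeR 4.0.16 (R 4.3.3) with TMM factors, filterByExpr, quasi-likelihood tests and Benjamini-Hochberg adjustment over all genes tested, in one fit per fraction (30132 and 31863 genes) and one of all 24 libraries (33523 genes). Called means an adjusted p under 0.05, and in counts between fractions that say so also an absolute log2 difference above 1. Printed CPM are TMM-scaled over all 24 libraries. DESeq2 1.42.0, other factors, filters, left-out libraries and a replicate block were alternatives. The fits were tested on simulated data with changes larger than that of any member between a knockout and WT, so power for such small changes was not tested. Gene models came from GENCODE (GRCm38). No 2 libraries were identical. The members, roles and gene lists were chosen with earlier results of these data known. Named in each comparison were called members, or the 3 of smallest p in a direction where fewer were called, and the catalytic and immunoproteasome genes, Psma8, Psmb11 and Psmd14.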

Additional observations from a re-analysis of the deposited data

How the results depend on the processing

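Counts of called members depended on the tool and filter in Ogg1-/- NeuN+: 0 by edgeR, but 1 with total counts, 2 with no filter, 4 with the likelihood ratio test, 6 with only the 2 genotypes compared, 5 with DESeq2 and 3 with the replicate block. Within a fraction, replicate numbers were not shown to pair samples (same-numbered deviations correlated at -0.15 to 0.15 in NeuN+ and -0.27 to 0.30 in NeuN-). Between fractions, same-numbered deviations correlated at 0.011 to 0.29, with a mean of 0.11 over 12 pairs. Other pairs between fractions lay at -0.26 to 0.14, with a mean of -0.055 over 24. Pairing of the fractions thus cannot be set aside, and the main fit of 24 libraries left it out. With the block, 20 members were higher and 5 lower between WT fractions. Beyond Ogg1-/- NeuN+, the block moved no count of calls by over 1.5 times. In DKO NeuN+ the count was 1 with no filter, 1 with the likelihood ratio test, 3 with DESeq2 and 0 to 1 with 1 library left out. DESeq2 called 1 in Mutyh-/- NeuN+, 1 in Ogg1-/- NeuN- and 1 in DKO NeuN-. Ogg1-/- against Mutyh-/- in NeuN+ gave 0 to 1 with 1 library left out. Between WT fractions the count of 3 was 23 by adjusted p alone and 0 with at least 10 counts in every sample, which removes those 3 genes. The cause was not tested for the others.

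The median log2 fold change in Mutyh-/- libraries was -0.15 in NeuN+ and -0.048 in NeuN- with total counts. With 1 library left out it ran from -0.16 to -0.12 in Ogg1-/- NeuN+, where the -0.12 was without WT replicate 2, from -0.038 to 0.0038 in Mutyh-/- NeuN- and from -0.068 to -0.035 in Ogg1-/- NeuN-. Between WT fractions the median was 0.24 with upper quartile factors, reversed to -0.10 with total counts, and ran from 0.094 to 0.13 with 1 library left out. Single genes near 0 changed sign: Psmb2 in Mutyh-/- (-0.0098) and DKO NeuN+ (-0.018) with total counts, and Psmb7 between fractions (0.054) with upper quartile factors. With 1 library left out, Psmb2 in NeuN+ ran from -0.012 to 0.065 in Mutyh-/-, from -0.014 to 0.071 in Ogg1-/- and from -0.036 to 0.04 in DKO libraries, Psmd8 in Mutyh-/- NeuN+ from -0.011 to 0.16, and Psma8 in Ogg1-/- NeuN- from -0.0067 to 0.23. Over all comparisons and alternatives, 290 counts of called members stayed within 1.5 times the main count and 16 did not. The main count was 0 in every comparison but the one between WT fractions. Most of the 290 are thus counts that stayed at 0, and the tally is no measure of stability. Psmb8, Psmb9 and Psmb11 enter the NeuN+ comparisons with WT only with no filter, at few counts.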
